A study of Homo sapiens with 8 samples.

Results

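The 47 genes described here encode the proteins that license, unwind, copy and repackage DNA in S phase, the enzymes that supply deoxynucleotides, and a pair of E2F transcription factors. They were listed by name and known function, with earlier results of these data known, and all 47 were found among the 28278 named genes of the deposited count table. All 47 also passed the filter on low counts that left 15684 genes for testing. By role they fall into 10 sub-steps: origin licensing, the MCM2-7 helicase, helicase activation, the PCNA clamp and its loaders, polymerases and primase, single-strand binding and fragment maturation, nucleotide supply, E2F factors, chromatin assembly, and fork checkpoint and repair.

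In G1, the origin recognition complex, CDC6 and CDT1 load the ring-shaped MCM2-7 helicase onto DNA, a step called licensing. At the start of S phase the helicase is switched on by CDC45, GINS and MCM10, and primase and the replicative polymerases copy the opened strands behind the sliding clamp PCNA. E2F factors raise the transcription of most of these genes as cells pass from G1 into S phase, so their mRNAs are widely used as markers of proliferating cells in tumours, liver cancer included.

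The cells were SK-Hep1, a line from a human liver tumour that is often described as endothelial, either sensitive (SS) or resistant (SR) to the kinase inhibitor sorafenib. Each of 4 groups had 2 libraries of poly(A) RNA from bulk cells. The groups were SR cells given siRNA against COL6A3 together with recombinant human endotrophin (here rhETP), SR cells given the COL6A3 siRNA alone (siCOL6A3), SR cells given control siRNA (SR siCtrl) and SS cells given control siRNA (SS siCtrl). COL6A3 encodes a chain of collagen VI, and endotrophin is a cleaved C-terminal piece of that chain. The comparisons ask what lowering COL6A3 did to replication mRNAs in resistant cells, whether added endotrophin brought them back, and how resistant cells stood against sensitive ones. The siRNA sequences, the dose of endotrophin, how resistance arose and whether sorafenib was present are stated nowhere in the labels. The labels name 1 resistant and 1 sensitive population, so resistance and the population that carries it cannot be told apart.

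Library totals were 30461668 to 44116043 counts, and 15301 to 16594 genes were detected per library. COL6A3 mRNA, which checks the siRNA labels, stood at 65.9 and 71.3 CPM (edgeR's depth-scaled read count, with TMM factors) in rhETP libraries, 42.7 and 44.95 in siCOL6A3 libraries, 135 and 136 in SR siCtrl libraries and 17.8 and 19.7 in SS siCtrl libraries. Of 5 hepatocyte markers, which summed to 16.0 to 49.1 CPM, 4 were under 1 CPM in every library and ALB, APOA1 and TTR were at 0. Endothelial markers summed to 2.30 to 9.57 CPM, with 4 of 6 under 1 CPM in all libraries, 3 leukocyte markers summed to 92.2 to 114 CPM and 4 mesenchymal markers to 5787 to 11898 CPM. Among the 47, 7 genes have named pseudogenes and 10 overlap an exon of a coding gene on the opposite strand, and their counts are less certain. The counts of the 47 ran from 136 to 22294 per library. A gene is said below to have risen, fallen or been called where edgeR's quasi-likelihood test gave a Benjamini-Hochberg adjusted p under 0.05 over all genes tested, and fold changes are on the log2 scale with their standard error (SE).

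The COL6A3 siRNA lowered most replication mRNAs in resistant cells. Of the 47 genes, 39 fell in siCOL6A3 libraries relative to SR siCtrl libraries, 0 rose and 8 were not called, where 10.9% of all genes tested fell and 11.4% rose. The median change of the 47 was -0.61, beside 0.0042 over all genes tested. Both siCOL6A3 libraries lay below both SR siCtrl libraries for 45 of the 47 genes, a position that 28.4% of all genes tested shared. Both also lay below all 6 other libraries for 40 of the 47, as they did for 9.12% of all genes tested. Taken as a pool, the 47 mRNAs held 0.433 and 0.453% of all counts in rhETP libraries, 0.304 and 0.310% in siCOL6A3 libraries, 0.465 and 0.457% in SR siCtrl libraries and 0.424 and 0.412% in SS siCtrl libraries, so the siCOL6A3 pair stood alone at the bottom. In RNA from bulk cells, fewer cells in S phase and less RNA per such cell cannot be told apart. Of the 39 calls, 30 held under every alternative tried. Those of MCM6 and RFC3 were lost without either siCOL6A3, SR siCtrl or rhETP library, at -0.28 to -0.21 and -0.41 to -0.33.

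Added endotrophin raised most of them again. With rhETP, 32 of the 47 genes were higher than with siCOL6A3 alone, 0 were lower and 15 were not called, against 4.41% of all genes tested that rose and 3.36% that fell; the median was 0.52, beside 0.00097 over all genes. In 46 of the 47 both rhETP libraries lay above both siCOL6A3 libraries, as they did for 26.7% of all genes tested. Some of the 32 calls were lost whichever rhETP or siCOL6A3 library was left out. Each such setting left 1 library in a group, and fewer genes were also called higher over all genes tested. The median of the 47 stayed at 0.48 to 0.54 when each library was left out. With no scaling beyond library totals, 29 members still rose, while over all genes tested 531 rose and 676 fell in place of 691 and 527. COL6A3 mRNA itself was 0.65 (SE 0.11) higher in rhETP than in siCOL6A3 libraries, and its part in this result was not tested. This comparison and the one before it share the siCOL6A3 libraries.

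Against SR siCtrl cells, the number of the 47 called lower in rhETP cells was near the share over all genes. CDC6, CDT1, MCM10, RPA2 and CHAF1A remained lower, MCM5 was higher, and 41 of the 47 were not called, where 8.93% of all genes tested were lower and 10.1% higher. The median was -0.055. A gene that was not called is not shown to be equal. Both rhETP libraries lay below both SR siCtrl libraries for 19 of the 47 and above them for 11, positions held by 27.8% and 29.5% of all genes tested. This comparison shares the rhETP libraries with one of the comparisons above and the SR siCtrl libraries with the other.

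**Figure D1:**
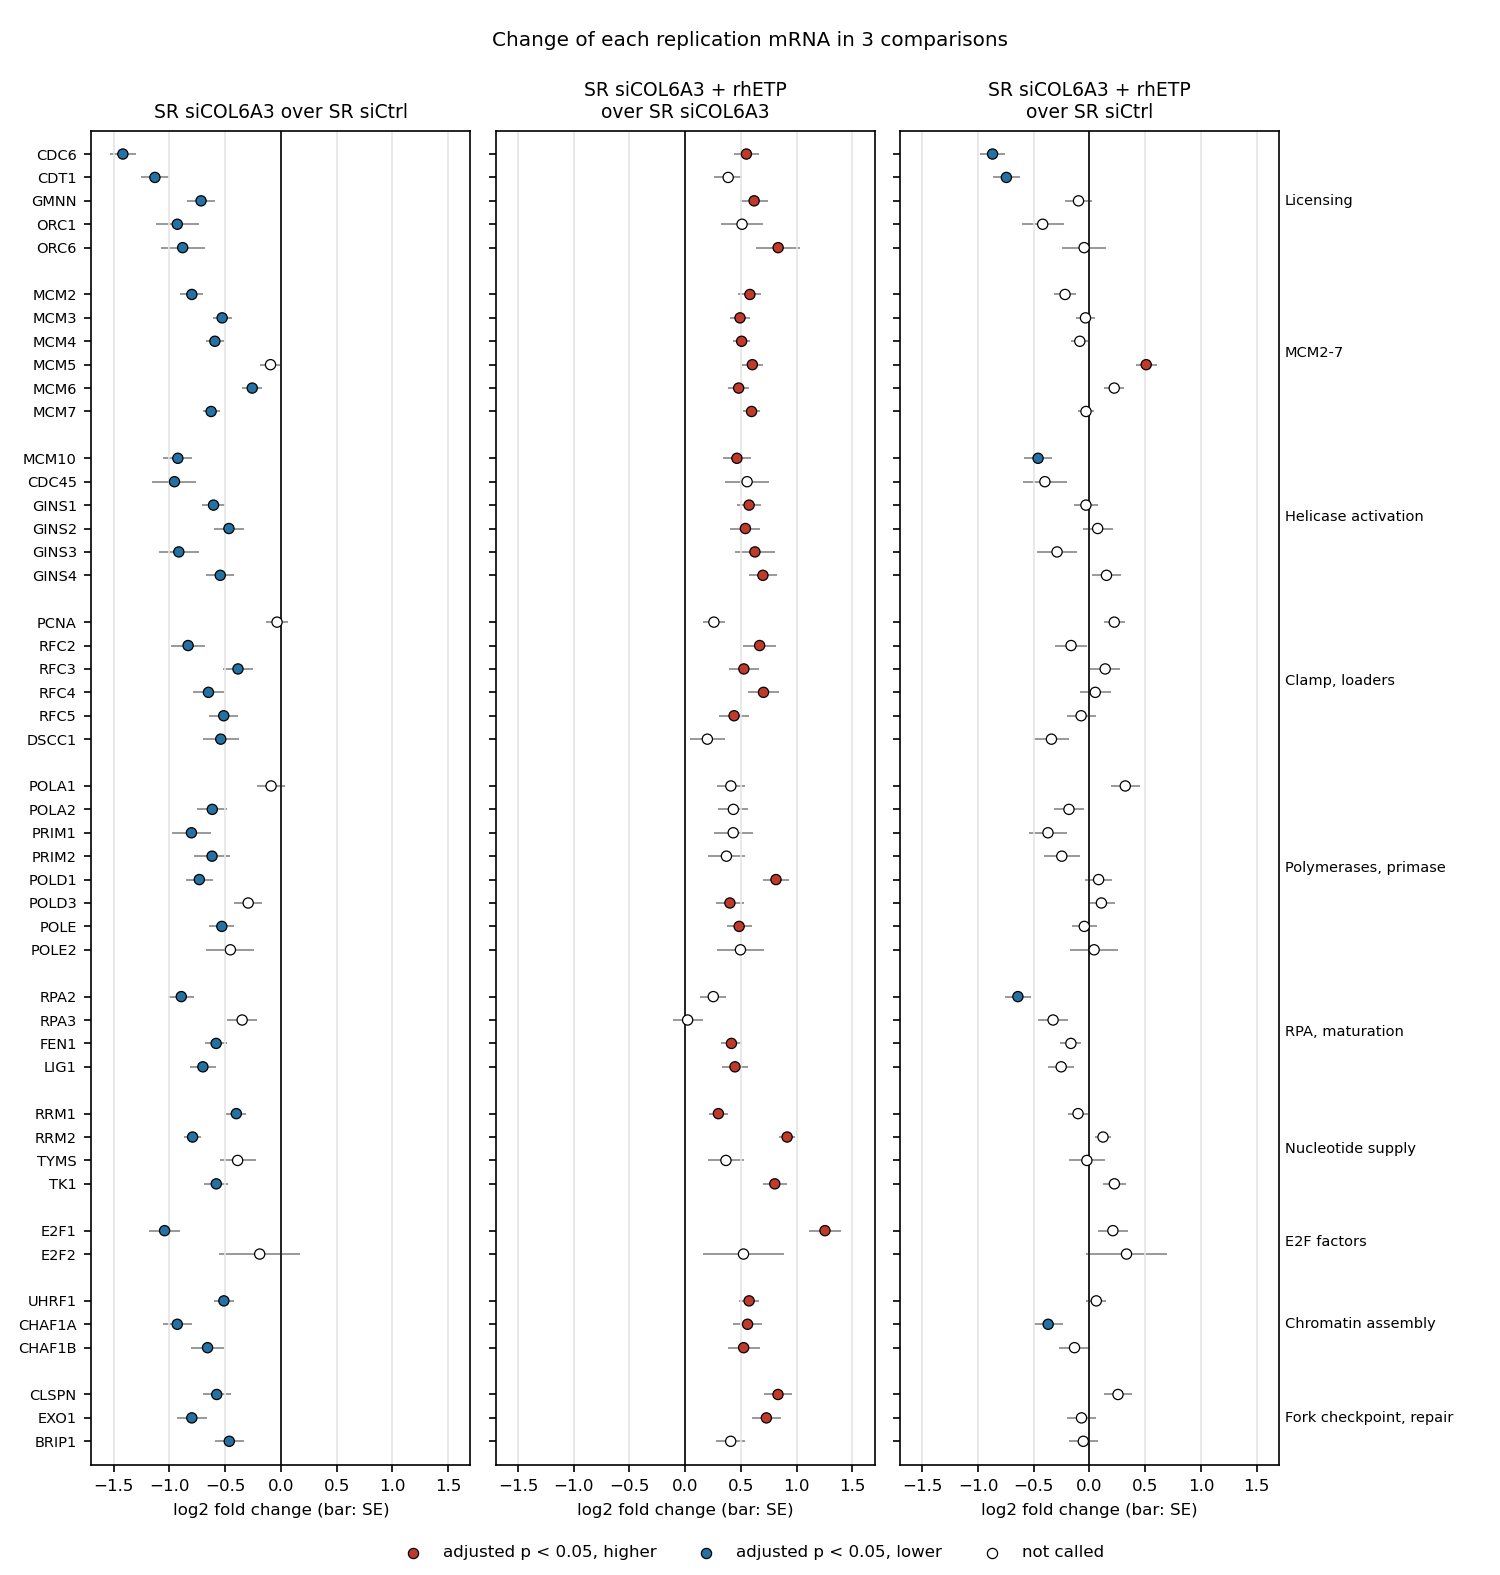
log2 fold changes (horizontal axis, with SE bars) of the 47 genes in 3 comparisons, grouped by sub-step; red and blue points were called higher and lower, open points were not called. In the left panel 39 points are blue, in the middle panel 32 are red, and in the right panel 41 are open, with CDC6 at -0.87 and MCM5 at 0.51 at its 2 ends.

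Levels can be set between genes only per length, for which the authors' FPKM served. By group mean, MCM7, RRM2, TK1 and MCM4 were among the 5 highest of the 47 in every group and E2F2 was the lowest. RRM2 stood first in rhETP cells, at 117 FPKM, and MCM7 first in siCOL6A3, SR siCtrl and SS siCtrl cells, at 72.8, 111 and 122 FPKM. PCNA ranked 4 in rhETP cells, 2 in siCOL6A3 cells, 6 in SR siCtrl cells and 3 in SS siCtrl cells.

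E2F1, an activator of S-phase transcription, had the largest change of the 47 with rhETP over siCOL6A3. E2F1 had 69.4 and 62.5 CPM in rhETP libraries, 27.5 and 27.8 in siCOL6A3 libraries, 58.4 and 55.6 in SR siCtrl libraries and 36.4 and 48.5 in SS siCtrl libraries. The siCOL6A3 pair was lowest and nearly identical, and both rhETP libraries lay above all 6 others. E2F1 fell with siCOL6A3, with a log2 change of -1.04 (SE 0.14) (edgeR adjusted p = 1.08e-05) and was 1.25 (SE 0.14) higher with rhETP than with siCOL6A3 (edgeR adjusted p = 4.42e-06), a 2.38-fold higher level. Against SR siCtrl it was not called with rhETP, at 0.21 (SE 0.14). E2F2, its relative, was the scarcest of the 47, with 136 to 321 counts per library. E2F2 had 7.34 and 7.13 CPM in rhETP libraries, 6.11 and 3.97 in siCOL6A3 libraries, 4.99 and 6.51 in SR siCtrl libraries and 3.73 and 7.09 in SS siCtrl libraries. The siCOL6A3 and SR siCtrl libraries overlapped, and E2F2 was called in neither comparison, at -0.19 (SE 0.36) with siCOL6A3 and 0.52 (SE 0.36) with rhETP. The relative E2F3, not one of the 47, fell with siCOL6A3 as well, at -0.69 (SE 0.12), but with rhETP it was at -0.15 (SE 0.12) and was not called. Per length, in the authors' FPKM, the ratio of E2F1 to E2F3 was therefore 3.11 and 2.66 in rhETP libraries, 1.02 and 1.17 in siCOL6A3 libraries, 1.35 and 1.45 in SR siCtrl libraries and 0.955 and 1.26 in SS siCtrl libraries.

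E2F proteins recognise short GC-rich letters next to a run of T or A, and the RefSeq promoter table (build GRCh38.p14) let these be looked for in 40 of the 47 genes. The letters TTTCCCGC, TTTGGCGC, TTTCGCGC or TTTGCCGC, on either strand within 250 bases before an annotated start, were present in 16 of the 40, or 40%. They were present in 3.40% of all 27305 genes with a window and in 5.42% of the 11742 of them that were tested here. CCAAT, the letters of the NF-Y factor, was present in 60% of the 40 genes and 40.8% of the tested genes, and TTTGAA, a form of the cell cycle element typical of mitotic genes, in 5% and 12.1%. A match is a description of the letters and not a bound site. The stretches below are shown because genes with the same letters ranged from the second largest to the smallest change with siCOL6A3. They run 5′ to 3′ on the strand of the gene, and capitals mark the letters searched for on either strand.
CDT1 (chr16:88803734-88803781, plus strand): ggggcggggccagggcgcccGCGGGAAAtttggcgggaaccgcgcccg
E2F1 (chr20:33686386-33686438, minus strand): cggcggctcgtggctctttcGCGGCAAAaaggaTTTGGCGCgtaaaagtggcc
GINS2 (chr16:85688958-85689005, minus strand): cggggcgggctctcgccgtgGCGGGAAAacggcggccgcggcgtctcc
MCM6 (chr2:135876502-135876615, minus strand): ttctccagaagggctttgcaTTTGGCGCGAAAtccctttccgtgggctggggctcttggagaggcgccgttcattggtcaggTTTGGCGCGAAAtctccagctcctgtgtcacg
PCNA (chr20:5126654-5126701, minus strand): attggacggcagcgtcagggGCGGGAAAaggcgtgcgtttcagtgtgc
CDT1, GINS2 and PCNA carry the same 8 letters, in the GCGGGAAA direction, ahead of the start. With siCOL6A3 the log2 change was -1.13 for CDT1, -0.47 for GINS2 and -0.035 for PCNA. E2F1 holds a pair of matches next to each other, and MCM6 holds the same run of 12 letters at 2 places, in which TTTGGCGC and the reverse complement of TTTCGCGC overlap. MCM6 fell by 0.26. Of the 16 genes with the letters 12 fell with siCOL6A3, with a median of -0.52, and of the 24 genes with a window but no match 23 fell, with a median of -0.76. Over all genes tested 10.9% fell, and the difference between the 2 sets was not tested. CDC6 and RRM2 have no match in this window, from which nothing follows about E2F. The windows of RPA2, MCM4, POLD3, MCM5, DSCC1, RPA3 and GINS4 were not analysed here.

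All 5 licensing genes fell with siCOL6A3, and their median of -0.93 was the lowest of the 10 sub-steps. CDC6 (chromosome 17, 40287879 to 40304657 in GRCh38), the ATPase that brings the helicase to the origin, fell most of the 47. CDC6 had 52.1 and 57.2 CPM in rhETP libraries, 38.4 and 36.3 in siCOL6A3 libraries, 106 and 93.7 in SR siCtrl libraries and 87.6 and 86.1 in SS siCtrl libraries. No group overlapped any other, and the rhETP libraries stayed below both controls. With siCOL6A3 the log2 change was -1.42 (SE 0.11), or 2.67-fold lower (edgeR adjusted p = 1.27e-08). With rhETP, CDC6 was 0.55 (SE 0.11) above siCOL6A3 but still -0.87 (SE 0.11) against SR siCtrl (edgeR adjusted p = 7.1e-06) and -0.67 (SE 0.11) against SS siCtrl. The rise over siCOL6A3 was lost without rhETP replicate 2 (at 0.48).

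CDT1 (chromosome 16, 88803789 to 88809258), the partner that delivers the helicase, fell with siCOL6A3 and was the only licensing gene called between resistant and sensitive control cells. CDT1 had 48.6 and 49.98 CPM in rhETP libraries, 35.3 and 40.2 in siCOL6A3 libraries, 76.8 and 88.5 in SR siCtrl libraries and 46.7 and 50.1 in SS siCtrl libraries. The SR siCtrl pair stood above all other libraries, and the rhETP pair fell within the range of the SS siCtrl pair. CDT1 was 0.77 (SE 0.12) higher in SR siCtrl than in SS siCtrl (edgeR adjusted p = 0.000105), and fell by 1.13 with siCOL6A3. With rhETP it was at 0.39 (SE 0.13) against siCOL6A3, which was not called (edgeR adjusted p = 0.0628), and at -0.75 (SE 0.12) against SR siCtrl, which was called lower.

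Of the other licensing genes GMNN and ORC6 rose with rhETP and ORC1 was not called. GMNN encodes geminin, the protein that binds CDT1 and blocks further loading. GMNN had 75.3 and 87.95 CPM in rhETP libraries, 57.7 and 48.6 in siCOL6A3 libraries, 95.4 and 79.3 in SR siCtrl libraries and 85.4 and 90.1 in SS siCtrl libraries. It fell by 0.72 with siCOL6A3 and was 0.62 higher with rhETP, where its libraries overlapped both controls. ORC6, a subunit of the origin recognition complex, behaved alike, at -0.88 with siCOL6A3 and 0.83 with rhETP. ORC6 had 22.9 and 24.5 CPM in rhETP libraries, 12.6 and 13.9 in siCOL6A3 libraries, 28.96 and 20.03 in SR siCtrl libraries and 21.3 and 17.3 in SS siCtrl libraries. The 2 SR siCtrl libraries for ORC6 lay far apart, and its fall was not called without SR siCtrl replicate 1 (at -0.58) nor its rise without siCOL6A3 replicate 1 or rhETP replicate 2 (at 0.76 to 0.78). ORC1, the ATPase subunit of that complex, fell to 16.9 and 13.5 CPM in siCOL6A3 libraries, against 30.3 and 27.5 in SR siCtrl libraries, at -0.93 (SE 0.19). With rhETP it had 21.6 and 21.7 CPM and was called neither against siCOL6A3, at 0.51 (SE 0.19), nor against SR siCtrl, at -0.42 (SE 0.19).

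**Figure D2:**
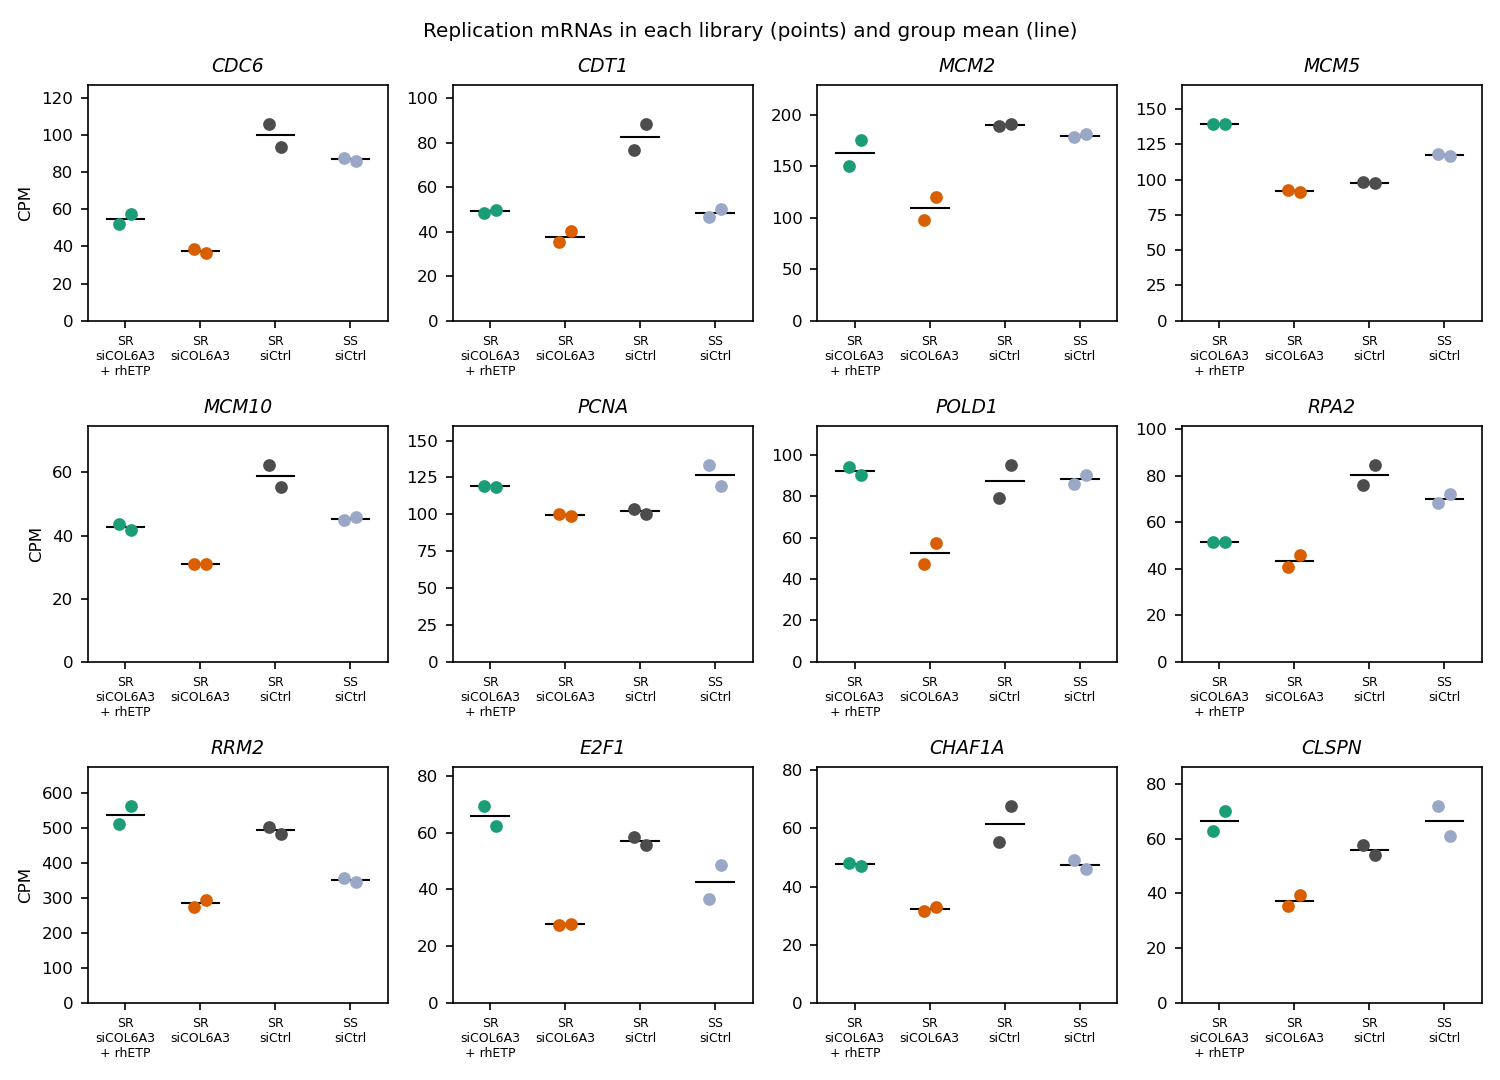
CPM of 12 of the genes (vertical axis, from 0) in each library, with a line at the group mean of 2 libraries; groups run from rhETP at the left to SS siCtrl at the right. The siCOL6A3 points are lowest in every panel, and the rhETP points lie within the SR siCtrl range for POLD1. They lie below the SR siCtrl points for CDC6, CDT1, MCM2, MCM10, RPA2 and CHAF1A, and above them for MCM5, PCNA, RRM2, E2F1 and CLSPN. Of these, MCM2, PCNA, RRM2, E2F1 and CLSPN were not called with rhETP against SR siCtrl.

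The 6 subunits of the MCM2-7 helicase were higher with endotrophin throughout. All 6 rose with rhETP over siCOL6A3, within a range of 0.48 to 0.60, and each of these calls held under every alternative tried. Their falls with siCOL6A3 were less even, from -0.80 for MCM2 to -0.094 for MCM5, which was the only subunit not called. MCM2 had 151 and 176 CPM in rhETP libraries, 98.02 and 120.5 in siCOL6A3 libraries, 189 and 191 in SR siCtrl libraries and 178 and 182 in SS siCtrl libraries. MCM7 had 335 and 337 CPM in rhETP libraries, 224 and 220.3 in siCOL6A3 libraries, 327 and 359.8 in SR siCtrl libraries and 388 and 386 in SS siCtrl libraries. MCM4 had 324 and 337 CPM in rhETP libraries, 238 and 227 in siCOL6A3 libraries, 370.3 and 331 in SR siCtrl libraries and 336 and 324 in SS siCtrl libraries. For all 6 subunits the siCOL6A3 pair lay below the 6 other libraries. The log2 changes of MCM2, MCM7 and MCM4 were -0.80 (SE 0.10), -0.63 (SE 0.076) and -0.59 (SE 0.078). MCM3 had 233 and 257 CPM in rhETP libraries, 172 and 176 in siCOL6A3 libraries, 251 and 250.4 in SR siCtrl libraries and 273 and 240.4 in SS siCtrl libraries. MCM6 had 157 and 168 CPM in rhETP libraries, 115 and 118 in siCOL6A3 libraries, 137 and 143 in SR siCtrl libraries and 139 and 150.1 in SS siCtrl libraries. MCM3 fell by 0.53 and MCM6 by 0.26, and for MCM6 both rhETP libraries lay above all others.

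MCM5 (chromosome 22, 35400140 to 35455031) was the subunit called higher with rhETP than in SR siCtrl cells. MCM5 had 139 and 139 CPM in rhETP libraries, 92.4 and 90.96 in siCOL6A3 libraries, 98.05 and 97.6 in SR siCtrl libraries and 118 and 116 in SS siCtrl libraries. The siCOL6A3 and SR siCtrl pairs lay close together, the SS siCtrl pair above them and the rhETP pair highest. It was 0.51 (SE 0.093) higher with rhETP than in SR siCtrl (edgeR adjusted p = 0.000391), the only one of the 47 that was called higher there. Since the subunits form a ring in equal number, their ratio within a library was also read. MCM5 over the mean of the other 5 subunits, in FPKM, was 0.595 and 0.561 in rhETP libraries, 0.562 and 0.543 in siCOL6A3 libraries, 0.397 and 0.391 in SR siCtrl libraries and 0.459 and 0.463 in SS siCtrl libraries. Both groups with the COL6A3 siRNA lay above both control groups, and the rhETP and siCOL6A3 values overlapped. With 2 libraries a group an exact permutation test of one ratio cannot go below 0.333, so ratios are given as values with no test. Loading factors and their load also shifted relative to each other: CDC6 over the mean of MCM2-7 was 0.181 and 0.188 in rhETP libraries, 0.191 and 0.178 in siCOL6A3 libraries, 0.361 and 0.317 in SR siCtrl libraries and 0.283 and 0.285 in SS siCtrl libraries. The rhETP and siCOL6A3 values overlapped and lay below both controls. CDT1 over the same mean was 0.290 and 0.282 in rhETP libraries, 0.300 and 0.337 in siCOL6A3 libraries, 0.448 and 0.513 in SR siCtrl libraries and 0.258 and 0.284 in SS siCtrl libraries, with the SR siCtrl pair above all others.

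**Figure D3:**
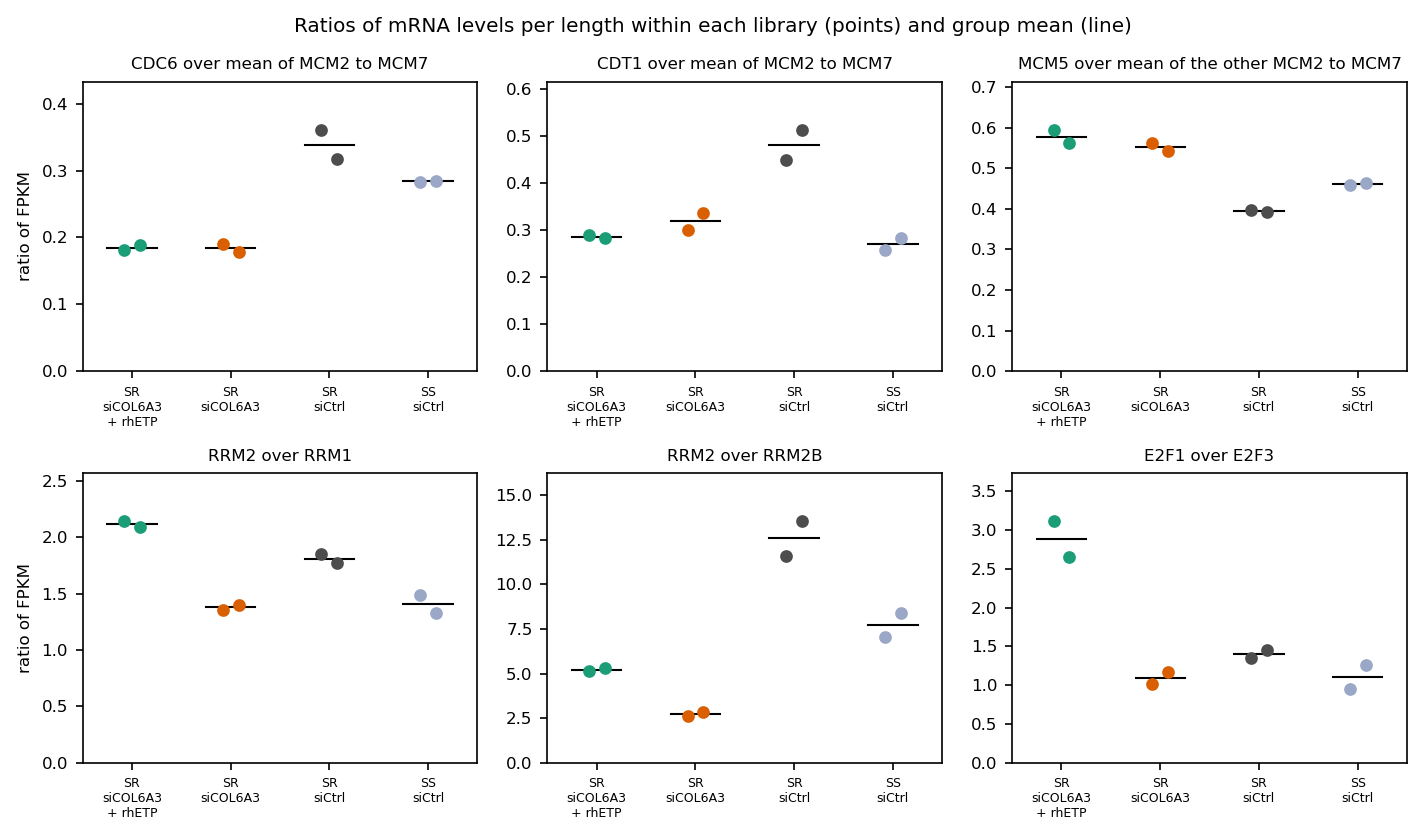
Ratios of FPKM (vertical axis, from 0) for 6 pairs of mRNAs in each library, with a line at the group mean of 2 libraries. CDC6 over MCM2-7 and MCM5 over the other subunits part both groups with the COL6A3 siRNA from both control groups, while RRM2 over RRM1 and E2F1 over E2F3 are highest in the rhETP pair.

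All 6 helicase activation genes fell with siCOL6A3, with a median of -0.76. CDC45, the factor that rides with MCM2-7 in the active helicase, fell most, at -0.96 (SE 0.20). CDC45 had 20.7 and 22.99 CPM in rhETP libraries, 13.5 and 16.3 in siCOL6A3 libraries, 28.8 and 28.9 in SR siCtrl libraries and 30.2 and 19.3 in SS siCtrl libraries. The siCOL6A3 pair was lowest, while the SS siCtrl libraries lay far apart. Its difference of 0.56 (SE 0.20) with rhETP over siCOL6A3 was not called. MCM10 had 43.7 and 41.9 CPM in rhETP libraries, 31.1 and 30.99 in siCOL6A3 libraries, 62.4 and 55.4 in SR siCtrl libraries and 44.8 and 45.9 in SS siCtrl libraries. MCM10, which triggers unwinding at the origin, showed 3 levels within resistant cells that did not overlap: siCOL6A3 lowest, rhETP between, SR siCtrl highest. It fell by 0.93 with siCOL6A3, was 0.46 (SE 0.13) higher with rhETP than with siCOL6A3, and remained -0.46 (SE 0.13) against SR siCtrl. The call of MCM10 against SR siCtrl was lost without SR siCtrl replicate 1 or either rhETP library (at -0.49 to -0.37), and that against siCOL6A3 when any 1 library of the rhETP or siCOL6A3 group was left out (at 0.43 to 0.50).

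The 4 GINS genes encode the tetramer that completes the helicase. GINS1 had 89.03 and 87.1 CPM in rhETP libraries, 58.5 and 59.9 in siCOL6A3 libraries, 96.3 and 83.7 in SR siCtrl libraries and 82.4 and 82.4 in SS siCtrl libraries. GINS3 had 24.6 and 28.9 CPM in rhETP libraries, 18.7 and 15.95 in siCOL6A3 libraries, 32.9 and 32.5 in SR siCtrl libraries and 19.8 and 26.98 in SS siCtrl libraries. GINS1 fell by 0.61 and GINS3 by 0.92, and with rhETP they were 0.57 and 0.63 higher than with siCOL6A3. GINS2 had 52.04 and 62.2 CPM in rhETP libraries, 42.3 and 36.2 in siCOL6A3 libraries, 54.1 and 54.4 in SR siCtrl libraries and 35.5 and 40.3 in SS siCtrl libraries. For GINS2 the siCOL6A3 pair overlapped the SS siCtrl pair, and its fall against SR siCtrl was -0.47 (SE 0.14). GINS4 had 55.4 and 56.8 CPM in rhETP libraries, 33.2 and 35.99 in siCOL6A3 libraries, 52.02 and 48.96 in SR siCtrl libraries and 48.5 and 43.1 in SS siCtrl libraries. GINS4 fell by 0.54 and with rhETP lay above all 6 other libraries, 0.70 higher than with siCOL6A3. The fall of GINS2 was lost without either SR siCtrl library or siCOL6A3 replicate 2 (at -0.46 to -0.34) and that of GINS4 without siCOL6A3 replicate 1 (at -0.48). The rises of GINS2 and GINS3 were lost without siCOL6A3 or rhETP replicate 2 (at 0.41 to 0.42 and 0.50 to 0.51).

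PCNA, the sliding clamp, was not called with siCOL6A3, while all 5 of its loaders fell. PCNA had 119 and 119 CPM in rhETP libraries, 100.2 and 99.02 in siCOL6A3 libraries, 104 and 100.4 in SR siCtrl libraries and 134 and 119 in SS siCtrl libraries. The nearest siCOL6A3 and SR siCtrl libraries were almost level. PCNA was at -0.035 (SE 0.097) with siCOL6A3, the smallest change of the 47, and at 0.26 (SE 0.096) with rhETP over siCOL6A3, which was not called. PCNA was the only gene of the 47 called lower in SR siCtrl than in SS siCtrl, at -0.31 (SE 0.097) with an edgeR adjusted p of 0.0318, a call that was lost without SS siCtrl replicate 1 or either SR siCtrl library (at -0.32 to -0.22). Relative to MCM2-7, PCNA was at 1.35 and 1.28 in rhETP libraries, 1.62 and 1.58 in siCOL6A3 libraries, 1.15 and 1.11 in SR siCtrl libraries and 1.41 and 1.29 in SS siCtrl libraries, in FPKM. PCNA has 3 named pseudogenes, so reads of near-identical copies may have been shared.

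The clamp loaders RFC2 to RFC5, subunits of replication factor C, all fell with siCOL6A3 and all rose with rhETP. RFC2 had 34.4 and 38.9 CPM in rhETP libraries, 25.04 and 21.1 in siCOL6A3 libraries, 42.5 and 39.7 in SR siCtrl libraries and 44.4 and 37.99 in SS siCtrl libraries. RFC4 had 49.6 and 41.6 CPM in rhETP libraries, 28.9 and 27.2 in siCOL6A3 libraries, 42.3 and 45.8 in SR siCtrl libraries and 40.5 and 39.9 in SS siCtrl libraries. RFC2 fell by 0.83 and RFC4 by 0.65, and both siCOL6A3 libraries lay below all others. With rhETP they were 0.67 (SE 0.15) and 0.70 (SE 0.14) higher than with siCOL6A3. RFC3 had 53.8 and 52.2 CPM in rhETP libraries, 37.8 and 35.8 in siCOL6A3 libraries, 47.9 and 48.2 in SR siCtrl libraries and 41.97 and 33.3 in SS siCtrl libraries. RFC5 had 54.8 and 61.5 CPM in rhETP libraries, 48.2 and 37.6 in siCOL6A3 libraries, 59.9 and 62.5 in SR siCtrl libraries and 50.3 and 52.4 in SS siCtrl libraries. RFC3 and RFC5 fell by 0.39 and 0.51. The siCOL6A3 pair lay below all other libraries for RFC5 as well, and overlapped the SS siCtrl pair for RFC3. The fall of RFC5 was lost without siCOL6A3 replicate 2 (at -0.33), and that of RFC3 when any 1 SR library was left out. The rise of RFC4 was lost without rhETP replicate 1 (at 0.57) and that of RFC2 without siCOL6A3 or rhETP replicate 2 (at 0.54 to 0.58). That of RFC3 was lost when any 1 library of the rhETP or siCOL6A3 group was left out (at 0.48 to 0.56), and that of RFC5 without siCOL6A3 replicate 2 or either rhETP library (at 0.26 to 0.52). DSCC1, a subunit of the alternative loader that serves sister chromatid cohesion, had 23.7 and 23.4 CPM in rhETP libraries, 19.6 and 21.4 in siCOL6A3 libraries and 29.02 and 30.6 in SR siCtrl libraries. It fell by 0.54 with siCOL6A3 and was at 0.20 (SE 0.16) with rhETP, not called; the fall was lost when any 1 library of the siCOL6A3 or SR siCtrl group was left out (at -0.59 to -0.47).

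Among 8 polymerase and primase genes, 5 fell with siCOL6A3 and 3 rose with rhETP. POLD1, the catalytic subunit of the lagging strand polymerase delta, fell with siCOL6A3 and rose with rhETP, where it was called against neither control. POLD1 had 94.1 and 90.5 CPM in rhETP libraries, 47.3 and 57.6 in siCOL6A3 libraries, 79.2 and 95.2 in SR siCtrl libraries and 85.9 and 90.4 in SS siCtrl libraries. The siCOL6A3 pair was lowest, and the rhETP pair fell within the range of the SR siCtrl pair. POLD1 fell by 0.73 with siCOL6A3 and was 0.81 (SE 0.12) higher with rhETP (edgeR adjusted p = 0.00013). POLE, the catalytic subunit of the leading strand polymerase epsilon, fell by 0.53 and was 0.48 higher with rhETP. POLE had 113 and 93.7 CPM in rhETP libraries, 68.5 and 79.3 in siCOL6A3 libraries, 103 and 111 in SR siCtrl libraries and 90.1 and 88.2 in SS siCtrl libraries. The rise of POLE was lost without siCOL6A3 or rhETP replicate 1 (at 0.34 to 0.38). POLD3 had 48.4 and 54.7 CPM in rhETP libraries, 39.1 and 38.9 in siCOL6A3 libraries, 47.7 and 47.98 in SR siCtrl libraries and 55.6 and 54.9 in SS siCtrl libraries. POLD3, an accessory subunit of polymerase delta, was at -0.29 (SE 0.12) with siCOL6A3, not called, and at 0.40 (SE 0.12) with rhETP, a call close to the threshold (edgeR adjusted p = 0.0499) that was lost when any 1 SR library was left out (at 0.31 to 0.49).

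Primase and its polymerase alpha partner start each new strand, and 3 of their 4 genes fell. PRIM1, the catalytic primase subunit, fell by 0.80. PRIM1 had 23.2 and 20.8 CPM in rhETP libraries, 17.1 and 15.5 in siCOL6A3 libraries, 31.1 and 25.8 in SR siCtrl libraries and 20.5 and 22.7 in SS siCtrl libraries. Its companion PRIM2 fell by 0.62, a call lost without SR siCtrl or siCOL6A3 replicate 2 (at -0.47), and POLA2, the regulatory subunit of polymerase alpha, fell by 0.62. POLA1, its catalytic subunit, was at -0.088 (SE 0.13), and its siCOL6A3 and SR siCtrl libraries overlapped, at 58.1 and 68.5 CPM against 71.3 and 63.5 CPM. With rhETP none of these 4 was called over siCOL6A3, at 0.41 for POLA1, 0.43 for POLA2, 0.43 for PRIM1 and 0.37 for PRIM2. POLE2, an accessory subunit of polymerase epsilon, was at -0.45 (SE 0.21) with siCOL6A3 and 0.50 (SE 0.21) with rhETP, neither of which was called.

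RPA2, a subunit of the single-strand binding protein RPA, fell with siCOL6A3 and was lower than in SR siCtrl with rhETP as well. RPA2 had 51.4 and 51.6 CPM in rhETP libraries, 40.7 and 45.8 in siCOL6A3 libraries, 76.1 and 84.7 in SR siCtrl libraries and 68.4 and 72.1 in SS siCtrl libraries. The rhETP libraries lay above the siCOL6A3 libraries and below both controls. RPA2 fell by 0.89 with siCOL6A3 (SE 0.12; edgeR adjusted p = 7.93e-06), was at 0.25 (SE 0.12) with rhETP over siCOL6A3, not called, and was -0.64 (SE 0.12) against SR siCtrl (edgeR adjusted p = 0.000367). RPA3, the smallest RPA subunit, was at -0.35 (SE 0.13) with siCOL6A3 and 0.022 (SE 0.13) with rhETP, neither called, and it was the only gene of the 47 whose rhETP and siCOL6A3 libraries overlapped. The nuclease FEN1 and the ligase LIG1, which trim and join lagging strand fragments, fell and rose. FEN1 had 133 and 136 CPM in rhETP libraries, 103 and 98.8 in siCOL6A3 libraries, 141 and 161 in SR siCtrl libraries and 150.2 and 140.4 in SS siCtrl libraries. LIG1 had 79.99 and 76.1 CPM in rhETP libraries, 51.6 and 62.9 in siCOL6A3 libraries, 91.02 and 95.1 in SR siCtrl libraries and 74.2 and 88.7 in SS siCtrl libraries. With siCOL6A3 they fell by 0.58 and 0.70, and with rhETP they were 0.41 (SE 0.095) and 0.45 (SE 0.12) higher than with siCOL6A3. The rise of FEN1 was lost without siCOL6A3 or rhETP replicate 2 (at 0.37 to 0.40), and that of LIG1 without siCOL6A3 replicate 1 or either rhETP library (at 0.30 to 0.48).

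Of 4 nucleotide supply genes, 3 fell with siCOL6A3 and the same 3 rose with rhETP. RRM2 (chromosome 2, 10122568 to 10211010), the S-phase subunit of ribonucleotide reductase, fell with siCOL6A3 and rose with rhETP. RRM2 had 510.0 and 562 CPM in rhETP libraries, 274 and 295 in siCOL6A3 libraries, 503 and 482 in SR siCtrl libraries and 357 and 343 in SS siCtrl libraries. The siCOL6A3 pair lay lowest and the SS siCtrl pair next, and the rhETP pair lay above the SR siCtrl pair. RRM2 fell by 0.79 with siCOL6A3 (SE 0.074; edgeR adjusted p = 9.04e-08) and was 0.91 (SE 0.075) higher with rhETP than with siCOL6A3 (edgeR adjusted p = 4.81e-08). It was also 0.49 (SE 0.074) higher in SR siCtrl than in SS siCtrl (edgeR adjusted p = 4.68e-05). RRM2 has 3 named pseudogenes.

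RRM1, the large subunit that pairs with RRM2, fell and rose too. RRM1 had 188 and 213 CPM in rhETP libraries, 159 and 167 in siCOL6A3 libraries, 215 and 215 in SR siCtrl libraries and 189 and 204 in SS siCtrl libraries. It fell by 0.40 with siCOL6A3, and its rise of 0.30 with rhETP was lost without either siCOL6A3 library or rhETP replicate 2 (at 0.21 to 0.32). The FPKM ratio of RRM2 to RRM1 was 2.14 and 2.09 in rhETP libraries, 1.36 and 1.40 in siCOL6A3 libraries, 1.85 and 1.77 in SR siCtrl libraries and 1.49 and 1.33 in SS siCtrl libraries, lowest in siCOL6A3 and SS siCtrl cells. RRM2B, the p53-inducible alternative small subunit and not one of the 47, went the other way. RRM2B had 111 and 118 CPM in rhETP libraries, 116 and 115 in siCOL6A3 libraries, 48.2 and 39.6 in SR siCtrl libraries and 56.5 and 45.4 in SS siCtrl libraries. RRM2B rose by 1.40 (SE 0.12) with siCOL6A3 and was not called with rhETP over siCOL6A3, at -0.015 (SE 0.12). The FPKM ratio of RRM2 to RRM2B was thus 5.11 and 5.31 in rhETP libraries, 2.63 and 2.85 in siCOL6A3 libraries, 11.6 and 13.5 in SR siCtrl libraries and 7.03 and 8.42 in SS siCtrl libraries.

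The salvage enzyme thymidine kinase, TK1, fell and rose. TK1 had 169 and 206 CPM in rhETP libraries, 98.9 and 116 in siCOL6A3 libraries, 151 and 170.1 in SR siCtrl libraries and 195 and 182 in SS siCtrl libraries. It fell by 0.58 with siCOL6A3 and was 0.80 (SE 0.11) higher with rhETP, where its libraries overlapped both controls. TYMS, the thymidylate synthase of the de novo route, was at -0.39 (SE 0.16) with siCOL6A3 and 0.37 (SE 0.16) with rhETP, and was called in neither. Its count is uncertain, since 39.1% of its exon bases overlap ENOSF1 on the opposite strand and the labels do not say whether counting used strand. TYMS also has 2 named pseudogenes.

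The 3 chromatin assembly genes fell with siCOL6A3 and rose with rhETP. CHAF1A, the large subunit of the CAF-1 chaperone that places new histones behind the fork, fell by 0.93 (SE 0.13; edgeR adjusted p = 1.96e-05). CHAF1A had 48.2 and 47.04 CPM in rhETP libraries, 31.7 and 32.9 in siCOL6A3 libraries, 55.4 and 67.8 in SR siCtrl libraries and 49.04 and 46.1 in SS siCtrl libraries. The rhETP pair lay between siCOL6A3 and SR siCtrl, 0.56 (SE 0.13) above the first and -0.37 (SE 0.13) against the second. The call against SR siCtrl (edgeR adjusted p = 0.0496) was lost without SR siCtrl replicate 2, or any siCOL6A3 or rhETP library (at -0.39 to -0.21), and that against siCOL6A3 without siCOL6A3 or rhETP replicate 1 (at 0.53 to 0.54). CHAF1B had 43.8 and 52.7 CPM in rhETP libraries, 35.6 and 31.5 in siCOL6A3 libraries, 58.2 and 47.6 in SR siCtrl libraries and 51.8 and 44.98 in SS siCtrl libraries. UHRF1 had 215 and 192 CPM in rhETP libraries, 129.5 and 144 in siCOL6A3 libraries, 200.2 and 189.6 in SR siCtrl libraries and 188 and 191 in SS siCtrl libraries. CHAF1B, its partner subunit, fell by 0.66, and UHRF1, which recruits the maintenance DNA methyltransferase to new DNA, by 0.51. With rhETP they were 0.52 (SE 0.14) and 0.57 (SE 0.091) higher than with siCOL6A3, the first lost without siCOL6A3 or rhETP replicate 2 (at 0.39 to 0.43).

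Fork checkpoint and repair genes fell in all 3 cases. CLSPN encodes claspin, which relays the stalled fork signal to the kinase CHK1. CLSPN had 62.9 and 70.1 CPM in rhETP libraries, 35.2 and 39.4 in siCOL6A3 libraries, 57.5 and 53.9 in SR siCtrl libraries and 71.9 and 60.8 in SS siCtrl libraries. It fell by 0.58 with siCOL6A3 and was 0.83 (SE 0.13) higher with rhETP (edgeR adjusted p = 0.000188), with both rhETP libraries above both SR siCtrl libraries. EXO1 had 49.8 and 50.3 CPM in rhETP libraries, 32.6 and 27.8 in siCOL6A3 libraries, 53.5 and 51.6 in SR siCtrl libraries and 37.4 and 35.8 in SS siCtrl libraries. EXO1, an exonuclease of mismatch repair and fork processing, fell by 0.80, was 0.73 (SE 0.13) higher with rhETP, and was 0.52 (SE 0.13) higher in SR siCtrl than in SS siCtrl (edgeR adjusted p = 0.00818). BRIP1, a helicase that works with BRCA1, fell by 0.46, a call lost without SR siCtrl or siCOL6A3 replicate 1 (at -0.42 to -0.34), and was at 0.41 (SE 0.13) with rhETP, not called.

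Compared by sub-step, licensing had the lowest median both with siCOL6A3 and with rhETP against SR siCtrl. Medians with siCOL6A3 ran from -0.93 for licensing and -0.76 for helicase activation to -0.56 for MCM2-7, -0.53 for the clamp and loaders and -0.49 for nucleotide supply. The ranges overlapped: licensing genes lay between -1.42 and -0.72, and MCM2-7 between -0.80 and -0.094. With rhETP against SR siCtrl, the licensing median was -0.42 and that of single-strand binding and maturation -0.29, while the medians of MCM2-7 (-0.034), polymerases (-0.0025) and nucleotide supply (0.049) were near 0. Licensing also had the highest median in SR siCtrl over SS siCtrl, at 0.34, so its place depended on the reference. This top place was not held when each library was left out. The licensing median was then 0.12 to 0.54, lowest without SR siCtrl replicate 1, and that of helicase activation 0.26 to 0.35. For siCOL6A3 over SR siCtrl the same ranges were -1.03 to -0.84 and -0.80 to -0.66. With siCOL6A3 against SS siCtrl the licensing median of -0.539 was almost level with MCM2-7 (-0.534) and chromatin assembly (-0.530). As a share of all counts, licensing mRNAs took 0.0218 and 0.0239% in rhETP libraries, 0.0164 and 0.0155% in siCOL6A3 libraries, 0.0342 and 0.0310% in SR siCtrl libraries and 0.0262 and 0.0256% in SS siCtrl libraries. In this pooled share the rhETP pair lay below both controls. Gene by gene, CDC6 was the only licensing gene called lower with rhETP than in SS siCtrl, and the licensing median there was 0.028. MCM2-7 mRNAs took 0.133 and 0.140%, 0.0961 and 0.0967%, 0.139 and 0.138% and 0.141 and 0.137% in rhETP, siCOL6A3, SR siCtrl and SS siCtrl libraries, where 1 rhETP library lay below all 4 control libraries and the other among them. With 2 to 8 genes a sub-step and genes that are not independent, the order of medians is a description and was not tested.

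**Figure D4:**
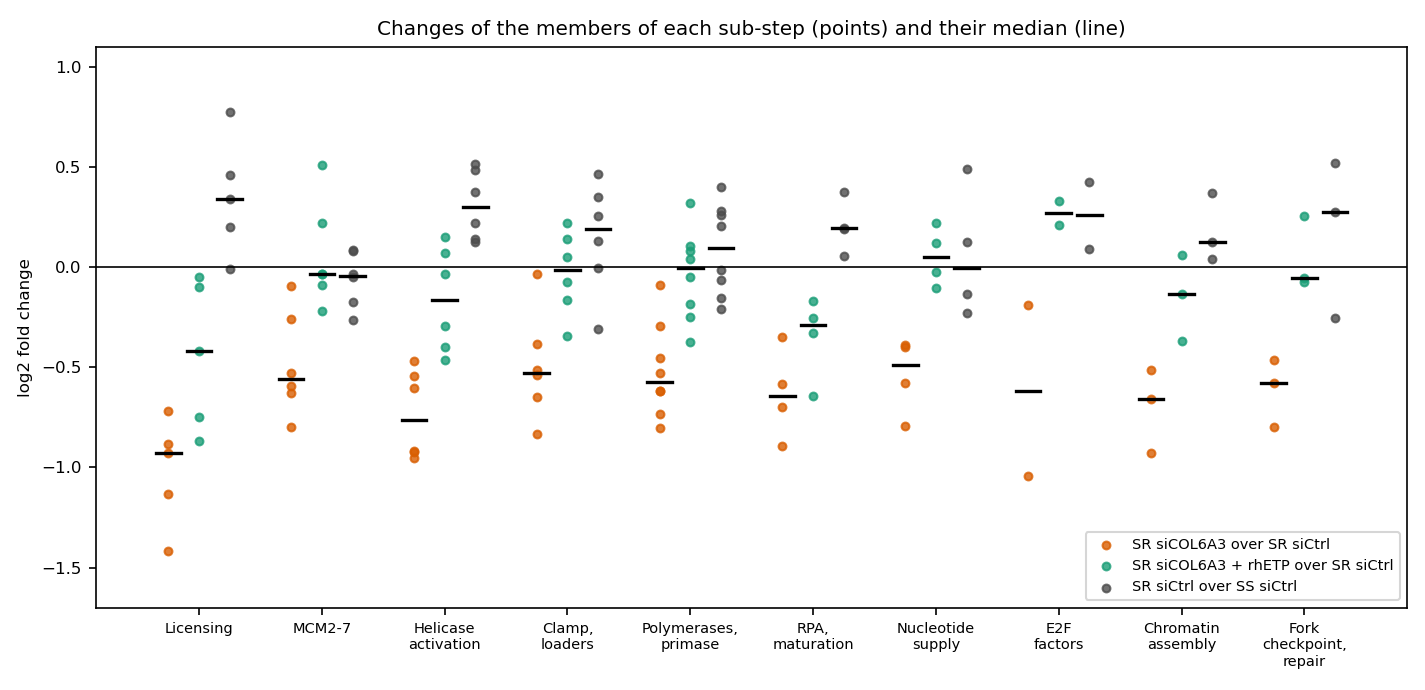
log2 fold changes (vertical axis) of the genes in each of the 10 sub-steps, with a line at the median, for siCOL6A3 over SR siCtrl, rhETP over SR siCtrl and SR siCtrl over SS siCtrl. The siCOL6A3 medians lie between -0.93 and -0.49, and the rhETP median stays furthest below 0 for licensing, at -0.42.

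Taken in both directions together, the number of the 47 called between resistant and sensitive control cells was near the share over all genes. By direction, more of the 47 were called higher than lower, while over all genes more were called lower. In SR siCtrl relative to SS siCtrl 6 genes were higher, 1 was lower and 40 were not called, where 6.52% of all genes tested were higher and 9.3% lower; the median was 0.14, beside 0.012 over all genes. Besides CDT1, RRM2 and EXO1, whose calls held under every alternative tried, GINS2 was 0.52 (SE 0.14) higher, E2F1 0.43 (SE 0.14) and MCM10 0.38 (SE 0.13). GINS2 was not called without SS siCtrl replicate 1 (at 0.43), E2F1 without SS siCtrl replicate 1 or either SR siCtrl library (at 0.23 to 0.47), and MCM10 without either SS siCtrl library, SR siCtrl replicate 1 or either rhETP library (at 0.30 to 0.39). The number called was 11 when the genes tested were those averaging 100 counts or more and 4 when only these 2 groups were fitted. In those settings 1069 and 657 genes were higher over all genes tested, and 1440 and 1255 lower, of 11497 and 14635. Relative to SS siCtrl, siCOL6A3 cells had 31 of the 47 lower and 0 higher, where 14.5% of all genes tested were lower and 13.1% higher, and rhETP cells had 5 higher (GINS2, RFC3, RRM2, E2F1 and EXO1) and 3 lower (CDC6, MCM7 and RPA2), where 13% and 13.8% were. The rhETP calls of E2F1, RRM2, CDC6 and RPA2 held under every alternative tried. That of MCM7 was lost when any 1 of the 8 libraries was left out (at -0.21 to -0.19), that of GINS2 without rhETP replicate 2 (at 0.46), that of RFC3 without SS siCtrl replicate 2 or rhETP replicate 1 (at 0.34 to 0.47) and that of EXO1 without SS siCtrl replicate 2 or either rhETP library (at 0.42 to 0.46). The median of the 47 for rhETP over SS siCtrl stayed at 0.021 to 0.075 when each library was left out. These comparisons share libraries with those above.

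Other genes of the same pathway were listed by function. Of 57 tested, 34 fell with siCOL6A3 and 2 rose, with a median of -0.41, and with rhETP over siCOL6A3 20 rose and 1 fell, with a median of 0.28. The gene that fell was E2F5, at -0.75 (SE 0.22). Over all genes tested, 10.9% fell and 11.4% rose with siCOL6A3, and 4.41% rose and 3.36% fell with rhETP over siCOL6A3. Among 15 other origin genes 9 fell, led by MCM8, a helicase of recombination repair, at -0.97 (SE 0.15) and by the origin-firing helicase RECQL4 at -0.96 (SE 0.12), and the MCM8 partner MCM9 rose, at 0.65 (SE 0.21). RECQL4 was 0.63 higher with rhETP and MCM8 was not called, at 0.24. Of 16 other fork genes 11 fell, most of all TIMELESS, a fork protection factor, at -0.81 (SE 0.11), and RNASEH2A, which removes RNA from DNA, at -0.79 (SE 0.12). Of 9 other nucleotide genes 6 fell and RRM2B rose; DTYMK, thymidylate kinase, was at -0.80 (SE 0.11). Of 17 other E2F, RB and chromatin genes 8 fell, the most E2F3, given above, and the histone chaperone NASP, at -0.53 (SE 0.082).

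The cell cycle genes around S phase moved too. Their counts below stand beside 10.9% of all genes tested that fell with siCOL6A3 and 4.41% that rose with rhETP over siCOL6A3. Of 12 G1 to S regulators 7 fell with siCOL6A3, with CCND1, cyclin D1, at -1.35 (SE 0.067) and the phosphatase CDC25A at -1.15 (SE 0.16), and 2 rose with rhETP over siCOL6A3, CCNA2 at 0.43 (SE 0.11) and CDK2 at 0.40 (SE 0.11). CCND1 had 366 and 380.5 CPM in rhETP libraries, 390.3 and 399.7 in siCOL6A3 libraries, 1011 and 996 in SR siCtrl libraries and 1121 and 1259.5 in SS siCtrl libraries, and was at -0.082 (SE 0.066) with rhETP, not called. Of 24 G2/M genes 22 fell with siCOL6A3, with CDC20 at -1.17 (SE 0.095) and PLK1 at -1.03 (SE 0.13) largest, and 18 rose with rhETP; their medians were -0.59 and 0.42, beside -0.61 and 0.52 for the 47 replication genes. Against SR siCtrl, 9 of the 24 G2/M genes were lower with rhETP and 1, BUB1B, was higher, at 0.34 (SE 0.11). Over all genes tested 8.93% were lower and 10.1% higher there.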

How the data were processed

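Poly(A) RNA of SK-Hep1 cells was sequenced in 8 libraries, 2 per group. The authors deposited whole-number read counts per gene and, in a separate table, FPKM values per gene. Per the submitters' processing notes the genome build was GRCh38; no source used here names the aligner, counter, annotation or strand setting. In each library 72.8% to 77.6% of counts between 1 and 20 were even, against 49.6% to 50.9% of counts of 500 or more, so counts were also tried halved. The deposited FPKM were whole counts divided by 1 length per gene and 1 factor per library, and served only to compare genes per length. The 1 unnamed entry held 0 counts.

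The counts were fitted with edgeR 4.0.16 in R 4.3.3 (filterByExpr, TMM factors of 0.981 to 1.02, quasi-likelihood F-test, 1 coefficient per group over all 8 libraries), with Benjamini-Hochberg adjustment over 15684 genes in each of 6 comparisons and a threshold of 0.05. SE was the size of the log2 fold change divided by the root of F. Alternatives were DESeq2 1.42.0, other scalings and filters, pairs of groups alone, a replicate block, halved counts and leaving out each library. The fit was tested on simulated data. The labels call the libraries biological replicates, but their origin in separate cultures is not given, so p-values measure only the spread between these samples. The genes, sub-steps and other lists were chosen with earlier results of these data known. Values in every library were given for genes called in SR siCtrl over SS siCtrl or in rhETP over siCOL6A3, and for the 2 in each sub-step with the largest change among those called in siCOL6A3 over SR siCtrl. From each list of other genes the 2 with the largest such change were named, and E2F5, MCM9, CCNA2, CDK2 and BUB1B were named after their values were seen.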

Additional observations from a re-analysis of the deposited data

How the results depend on the processing

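No direction of a call among the 47 genes was reversed under the 16 alternatives. The calls that held under all 16 were 30 of 39 for siCOL6A3 over SR siCtrl, 16 of 32 for rhETP over siCOL6A3, 4 of 6 for rhETP over SR siCtrl, 3 of 7 for SR siCtrl over SS siCtrl, 17 of 31 for siCOL6A3 over SS siCtrl and 4 of 8 for rhETP over SS siCtrl. In that order, leaving out each library gave 33 to 39, 19 to 38, 4 to 7, 5 to 9, 21 to 31 and 5 to 8 calls and medians of -0.60 to -0.57, 0.48 to 0.54, -0.11 to -0.023, 0.13 to 0.18, -0.48 to -0.44 and 0.021 to 0.075. With library totals in place of TMM the medians were 0.48 for rhETP over siCOL6A3, 0.18 for SR siCtrl over SS siCtrl and -0.43 for siCOL6A3 over SS siCtrl. SR siCtrl over SS siCtrl had 11 calls among genes that averaged 100 counts or more, 4 with only those groups fitted and 7 in the main result. With only those groups, 657 of 14635 genes were higher in SR siCtrl and 1255 lower, against 1022 and 1458 of 15684 in the main result. Among genes that averaged 100 counts or more, 1069 of 11497 were higher and 1440 lower. The cause of these shifts was not tested. Same-numbered libraries did not deviate together (correlations of -0.031 to 0.038), so the numbers were not taken to pair them. A replicate block gave 39, 34, 6, 7, 31 and 7 calls in the order above, and DESeq2 gave 39, 36, 7, 10, 30 and 9. Over all genes tested, the block called 1850, 772, 1650, 1091, 2095 and 2107 higher and 1768, 596, 1463, 1515, 2333 and 2208 lower. DESeq2 called 1934, 921, 1763, 1205, 2173 and 2212 higher and 1766, 691, 1479, 1608, 2314 and 2238 lower. The main result had, in the same order, 1793, 691, 1581, 1022, 2049 and 2039 higher and 1712, 527, 1400, 1458, 2273 and 2170 lower. With 2 libraries per group, differences that were not called may still exist, and the SE was widest for E2F2 with its 136 to 321 counts.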
